A study of Mus musculus with 6 samples.

Results

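The RNA-binding motif (Rbm) genes are a set of mouse genes named for the RNA recognition motif, a small fold with which most of their proteins hold single-stranded RNA. Members were the genes whose symbol begins with Rbm followed by a digit, x or y, without Rbm7 and Rbm8a, on probe sets annotated to 1 gene symbol, each gene being read from its brightest probe set by mean over 6 arrays. This gave 36 genes of 19937 in all, on 44 probe sets. The symbol rule also takes in Rbm3os, a long non-coding RNA gene whose span overlaps that of Rbm3, and Rbm8a2, which the RefSeq gene table lists as a pseudogene.

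Affymetrix Mouse Gene 1.0 ST arrays, which probe exons along each gene, were hybridised with RNA of granulocytes from C57BL/6J mice: 3 arrays labelled caffeine+ and 3 labelled caffeine- (called caffeine-plus and caffeine-minus here). By the labels' protocols every culture first received 15 mM caffeine for 4 hours and was washed. The caffeine-plus cells then had caffeine together with 2 µg/ml of the transcription inhibitor actinomycin D for 4 hours, and the caffeine-minus cells had actinomycin D alone, so both groups carry the transcription block and, as the protocol reads, a first exposure to caffeine, although the source label of the caffeine-minus samples says they were not treated with caffeine. Caffeine was used to inhibit nonsense-mediated decay (NMD), the pathway that removes mRNAs with premature stop codons. Whether the replicates are separate mice, separate cultures or repeats of 1 RNA is not in the labels, and the p-values therefore cover only array-to-array spread, possibly a technical one.

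Rbm proteins act at many steps of the life of an RNA. Several are parts of the spliceosome or help it to choose splice sites, others bring RNAs to the nuclear exosome for decay, guide the enzymes that methylate adenosine in RNA, or work in the nucleolus on ribosomal RNA. A number of genes for splicing regulators are known to carry alternative exons or retained introns that place a premature stop codon in their own mRNA, and such isoforms are substrates of NMD. The arrays give 1 value per probe set and do not separate isoforms.

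Values are log2 expression values as deposited, and each difference is caffeine-plus minus caffeine-minus on that scale with the standard error of the fit, n = 3 arrays per group. Rose and fell mean a limma adjusted p under 0.05 (Benjamini-Hochberg over 19937 genes), two-sided. Array medians lay between 6.49 and 6.60, and arrays correlated at r = 0.986 to 0.992 within groups and at 0.959 to 0.965 between groups (Pearson, across probe sets). All 12 listed granulocyte markers, among them Elane, Mpo, Ngp and S100a8, had mean log2 levels of 7.42 to 12.78, monocyte and macrophage markers 7.04 to 9.48, B cell markers 4.25 to 7.40, erythroid markers 5.77 to 7.02 and T and NK cell markers 4.23 to 6.38. The monocyte and macrophage range overlaps that of the granulocyte markers. The marker lists differed between the groups to unlike degrees, where 21.7% of all genes were lower. Among genes above the median level, where all 12 granulocyte markers lie, 33.0% were lower. All 12 granulocyte markers were lower in the caffeine-plus arrays, with values taken off the log scale summing to 18046 to 18585 in caffeine-plus and 26672 to 28117 in caffeine-minus arrays. All 5 measured monocyte and macrophage markers were lower too, with sums of 964 to 996 in caffeine-plus and 2061 to 2342 in caffeine-minus arrays. Of 5 measured B cell markers 1 was lower (Cd79b, picked out after its values were seen; sums of 286 to 337 in caffeine-plus and 506 to 526 in caffeine-minus arrays), of 5 T and NK cell markers none passed (sums of 226 to 284 in caffeine-plus and 242 to 261 in caffeine-minus arrays), and of 4 erythroid markers 1 was lower (Alas2, picked out after its values were seen; sums of 324 to 345 in caffeine-plus and 383 to 422 in caffeine-minus arrays). The counts of 1 in 5 B cell and 1 in 4 erythroid markers lower are near the 21.7% of all genes. The part of these marker changes in the results for the Rbm genes was not tested. In such bulk samples, fewer cells of a type and less RNA per cell cannot be told apart.

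Among the 36 Rbm genes there were 14 that rose and 5 that fell, and 17 were not past the threshold. Together the called genes were 52.8% of the members, where 37.9% of all genes were called. Above the median level 57.1% of the members were called, against 62.6% of all genes, so the larger share was not seen there. The risers were 38.9% of the members, against 16.2% of all genes tested, and the genes that fell were 13.9% of the members, against 21.7% of all genes. By at least 1.5-fold, 8 members rose and 1 fell, where 7.88% of all genes rose and 9.63% fell by that much. By at least 2-fold, 3 members rose and none fell, where 2.63% of all genes rose and 3.15% fell. These 3 were Rbmx2, Rbm5 and Rbm38. The median difference over the members was 0.07, against -0.04 over all genes (0.13 and 0.02 with every array centred on its median). Positive differences made up 23 of the 36, or 63.9%, against 42.7% of all genes. Caffeine-plus values lay entirely above caffeine-minus values in 16 members and entirely below in 6, where 19.5% and 26.3% of all genes did so. The members' median in an array was 8.80 to 8.93 in caffeine-plus and 8.65 to 8.82 in caffeine-minus arrays, ranges that overlap. Brightness bears on these shares: 28 members had a mean level above that of the median gene, of which 13 rose and 3 fell, or 46.4% and 10.7%. Among all genes of that brightness 29.5% rose and 33.0% fell. By at least 1.5-fold, 8 of the 28 members rose and 1 fell, where 1496 and 1503 of 9968 such genes did. By at least 2-fold, 3 of the 28 rose and none fell, where 502 and 522 of the 9968 did. Caffeine-plus values lay entirely above in 15 of the 28 and entirely below in 4, where 3293 and 3703 of the 9968 did so.

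**Figure D1:**
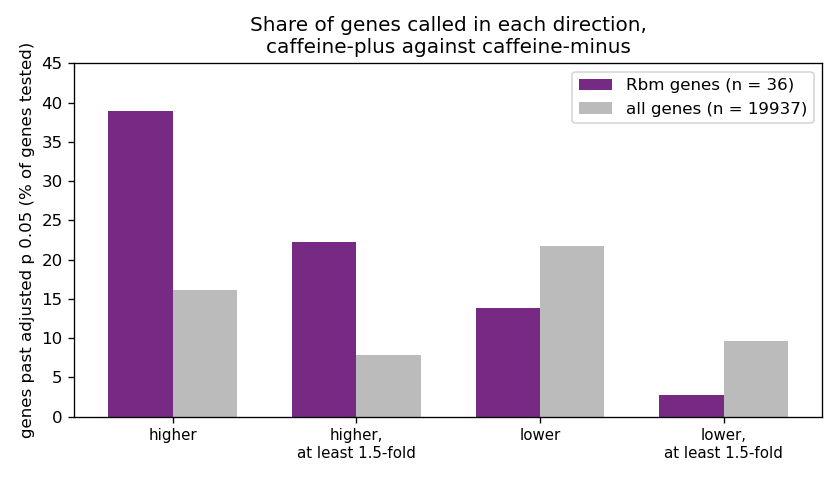
Bars give the share of genes past limma adjusted p 0.05 in each direction and, beside it, the share that also changed by at least 1.5-fold, for 36 Rbm genes (purple) and all 19937 genes (grey). The bars for risers are taller for the Rbm genes (38.9% against 16.2%) and the bars for falls are shorter (13.9% against 21.7%). The shares are not matched for brightness.

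The 3 Rbm5 subfamily genes (Rbm5, Rbm6 and Rbm10) all rose, where 16.2% of all genes and 29.5% of those above the median level did. Their proteins share an OCRE domain and a G-patch and regulate alternative splicing, and human RBM5 is known for promoting splicing choices linked to cell death. Rbm5 had log2 values of 11.28, 11.31 and 11.32 in caffeine-plus arrays, against 9.99, 10.05 and 10.03 in caffeine-minus arrays. The replicates lay within a few hundredths of each other and the groups were far apart, and the 2.43-fold rise (1.28 ± 0.05, limma adjusted p = 8.8e-11) had the smallest standard error of the 3 members that rose by at least 2-fold. Rbm6, whose gene neighbours Rbm5 on chromosome 9, had values of 9.75, 9.84 and 9.84 in caffeine-plus arrays and 8.84, 8.96 and 8.78 in caffeine-minus arrays. It rose 1.93-fold (0.95 ± 0.07, limma adjusted p = 2.7e-08), again with no overlap. A second, dimmer Rbm6 probe set, 10596810, differed by 0.11 ± 0.10 and did not pass. X-linked Rbm10, whose human counterpart is mutated in a syndrome of cleft palate and heart defects, had values of 8.93, 8.79 and 8.91 in caffeine-plus arrays and 7.86, 8.17 and 7.74 in caffeine-minus arrays. It rose 1.94-fold (0.95 ± 0.10, limma adjusted p = 1.2e-06), with the widest spread of the 3 in the caffeine-minus arrays. The span of Rbm10 overlaps that of Ndufb11, a respiratory chain gene that fell (-0.28 ± 0.05, limma adjusted p = 0.00040).

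The promoters of these 3 genes and of Rbmx2, the riser with the largest difference, are shown for the sequence at each gene's start. Both groups had actinomycin D, and whether promoters bear on these differences was not tested. Each run is 250 bases before to 50 bases after an annotated start, from RefSeq on GRCm38.p6, on the strand of the gene. Capitals mark the CCAAT box, the core CCGGAA of sites for ETS factors and the short form TGACG of the cAMP response element, each on either strand. The windows are chr9:107770953-107771252 (minus strand) for Rbm5, chr9:107872770-107873069 (minus strand) for Rbm6, chrX:20617253-20617552 (plus strand) for Rbm10 and chrX:48694754-48695053 (plus strand) for Rbmx2.
Rbm5: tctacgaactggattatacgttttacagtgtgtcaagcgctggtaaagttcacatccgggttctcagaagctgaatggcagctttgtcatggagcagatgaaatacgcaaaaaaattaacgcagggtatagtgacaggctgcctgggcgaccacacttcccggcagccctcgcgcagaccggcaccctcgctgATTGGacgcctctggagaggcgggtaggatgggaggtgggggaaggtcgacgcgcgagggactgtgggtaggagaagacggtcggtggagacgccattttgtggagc
Rbm6: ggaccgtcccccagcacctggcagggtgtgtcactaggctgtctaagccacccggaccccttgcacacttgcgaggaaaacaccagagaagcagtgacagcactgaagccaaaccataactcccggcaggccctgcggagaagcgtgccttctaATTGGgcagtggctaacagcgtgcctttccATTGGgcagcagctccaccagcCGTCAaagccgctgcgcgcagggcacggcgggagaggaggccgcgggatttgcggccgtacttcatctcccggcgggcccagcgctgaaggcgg
Rbm10: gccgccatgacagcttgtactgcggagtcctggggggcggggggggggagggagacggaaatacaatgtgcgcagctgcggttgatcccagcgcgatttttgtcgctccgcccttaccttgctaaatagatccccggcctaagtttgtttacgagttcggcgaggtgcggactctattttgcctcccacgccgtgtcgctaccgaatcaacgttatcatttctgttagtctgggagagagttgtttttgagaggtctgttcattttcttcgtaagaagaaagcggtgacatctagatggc
Rbmx2: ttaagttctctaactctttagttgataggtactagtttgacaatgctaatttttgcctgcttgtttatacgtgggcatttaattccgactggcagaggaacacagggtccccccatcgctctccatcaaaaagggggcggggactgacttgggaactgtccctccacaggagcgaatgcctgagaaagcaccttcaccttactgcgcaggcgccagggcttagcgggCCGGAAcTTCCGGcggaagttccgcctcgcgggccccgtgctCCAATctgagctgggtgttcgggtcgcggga

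In these windows the CCAAT box occurs 1 time in Rbm5, 2 times in Rbm6 and 1 time in Rbmx2, and Rbm10 holds none of the 3 marked motifs. Rbmx2 holds CCGGAA 2 times and Rbm6 holds TGACG 1 time. The Rbm windows numbered 33, for 29 of the 36 members, with none found for Rbm3, Rbm8a2, Rbm12b2, Rbm20 and Rbm44. Windows on chromosome 18 were left out of the Rbm windows, but not out of the set of all windows. Rbm22 and Rbm27, which both rose, lie on that chromosome, so the windows of risers do not include them. The median GC content was 60.7% in the 13 windows of genes that rose, 55.3% in the 3 windows of genes that fell and 59.7% in the 17 windows of genes that did not pass, against 52.7% over all 32851 windows in the table. The CCAAT box was in 6 of the 13 windows of risers, against 37.4% of all windows. The ETS core CCGGAA was in 2 of 13, against 14.9% of all windows. The full cAMP response element TGACGTCA was in none of the 33 Rbm windows and in 1.79% of all windows. TGACG, which lies within it, was in 2 of the 13 windows of risers and 9 of the 33, against 20.8% of all. Among risers the shares of the CCAAT box, CCGGAA and TGACG (46.2%, 15.4% and 15.4%) lie near those of all windows. All are matches of letters in these windows only.

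Among 8 genes for parts of the spliceosome or of its early assembly, 5 rose and none fell, where 16.2% of all genes rose and 21.7% fell. Of all genes above the median level, where these 8 lie, 29.5% rose and 33.0% fell. All 8 differences were positive (median 0.42), where 42.7% of all genes had a positive difference. Rbmx2, whose yeast counterpart Ist3 belongs to the RES complex that holds pre-mRNA in the activated spliceosome, had log2 values of 9.58, 9.42 and 9.45 in caffeine-plus arrays, against 8.19, 7.85 and 8.15 in caffeine-minus arrays. The groups were over a log2 unit apart at their nearest arrays, and the 2.68-fold rise (1.42 ± 0.09, limma adjusted p = 6.4e-09) ranked 139 among 19937 genes ordered by difference. Rbm17 encodes SPF45, which binds the U2AF-like factors at the end of introns. It had values of 9.78, 9.94 and 9.75 in caffeine-plus arrays and 8.98, 8.98 and 8.68 in caffeine-minus arrays, a 1.92-fold rise (0.94 ± 0.09, limma adjusted p = 2.6e-07).

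Rbm25, whose protein binds exonic enhancers and recruits the U1 snRNP, had values of 11.73, 11.77 and 11.80 in caffeine-plus arrays and 11.26, 11.09 and 11.23 in caffeine-minus arrays, so every caffeine-plus array was brighter. The rise was 1.49-fold (0.57 ± 0.05, limma adjusted p = 3.1e-07). All 4 Rbm25 probe sets rose when each probe set was tested, by 1.49-fold to 1.79-fold. Rbm39, a splicing factor related to U2AF and a coactivator of nuclear receptors, was 1.34-fold higher (0.42 ± 0.05), and Rbm22, whose protein contacts the catalytic RNAs of the spliceosome, 1.33-fold higher (0.41 ± 0.06). Rbm42 (0.18 ± 0.09), Rbm48 (0.09 ± 0.08) and Rbm41 (0.03 ± 0.08) did not pass. The products of Rbm48 and Rbm41 work on the rare introns of the minor spliceosome. With every array centred on its median, Rbm42 passed (limma adjusted p = 0.0499, range 0.0499 to 0.47 over 16 alternatives).

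**Figure D2:**
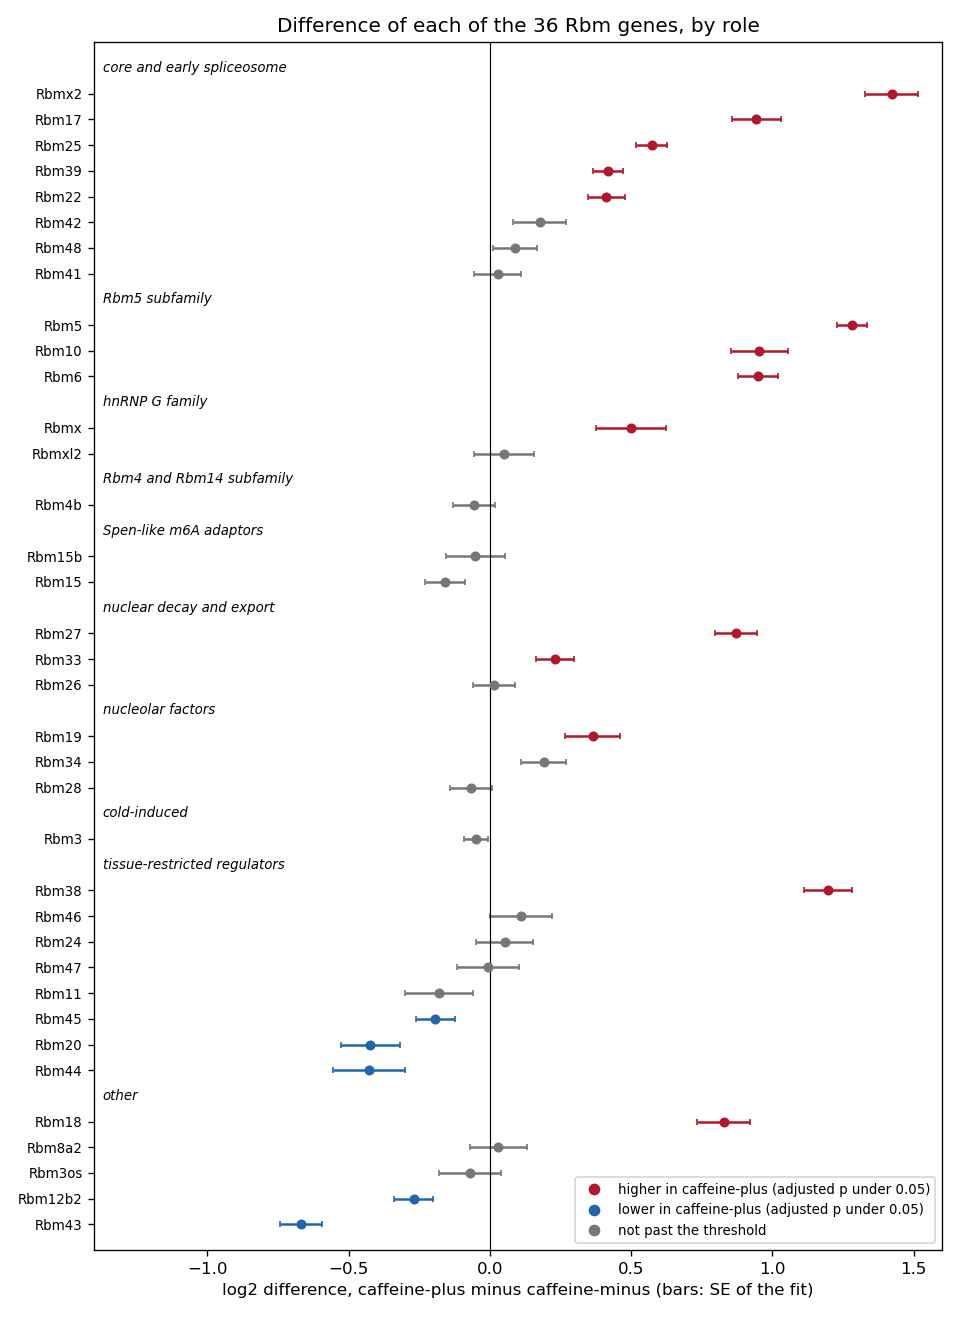
Each point is the log2 difference of 1 Rbm gene, caffeine-plus minus caffeine-minus, with the standard error of the fit as a bar, for 36 genes grouped by role. Red points rose, blue points fell and grey points did not pass limma adjusted p 0.05. All 8 spliceosome genes lie right of 0, from 0.03 to 1.42, and the genes grouped as tissue-restricted run from -0.43 to 1.20.

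Rbmx, the X-linked gene of hnRNP G, a nuclear protein in alternative splicing and genome stability, had log2 values of 8.79, 8.94 and 8.58 in caffeine-plus arrays and 8.47, 8.40 and 7.94 in caffeine-minus arrays. The groups came close at their nearest arrays without overlapping, and the rise was 1.41-fold (0.50 ± 0.13, limma adjusted p = 0.0042). Probe sets that Rbmx shares with its intronless copy Rbmxl1 gave the other direction. In a fit of all 34760 probe sets, 10579830 differed by -0.57 ± 0.09 (limma adjusted p = 0.0016) and 10580986 by -0.30 ± 0.06 (limma adjusted p = 0.0085). The direction for Rbmx thus rests on 1 probe set, and which transcripts the shared ones measure is not known here. Rbmxl2, the testis member of the family, differed by 0.05 ± 0.11 and did not pass.

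Among genes for nuclear decay and export 2 of 3 rose, where 16.2% of all genes and 29.5% of those above the median level did. The call of 1 of the 2 risers, Rbm33, was lost in 4 of 16 alternatives. Rbm26 and Rbm27 encode related zinc finger proteins that join the nuclear exosome's targeting machinery for polyadenylated RNA. Rbm27 had log2 values of 9.87, 9.86 and 9.83 in caffeine-plus arrays, against 9.08, 9.02 and 8.84 in caffeine-minus arrays, a 1.83-fold rise (0.87 ± 0.07, limma adjusted p = 1e-07). Rbm26 averaged 10.02 ± 0.04 in caffeine-plus and 10.01 ± 0.15 in caffeine-minus arrays (SD, n = 3 each), groups that overlap (0.01 ± 0.07, limma adjusted p = 0.92). The change of Rbm27 exceeded that of Rbm26 by 0.86 ± 0.05 (SE over arrays). An exact permutation test of that difference, two-sided, gave p = 0.1, the smallest that 3 against 3 arrays allow. The pair was picked out after its values were seen. Rbm33, whose human protein assists the RNA demethylase ALKBH5, rose 1.17-fold (0.23 ± 0.07, limma adjusted p = 0.012). Its call was lost after quantile normalization (limma adjusted p = 0.063), without an intensity trend in the variances (0.070), without caffeine-minus array 2 (0.070) and without caffeine-plus array 3 (0.0503), with a range of 0.00015 to 0.070 over 16 alternatives. Of its 3 probe sets 10520379 was 1.33-fold higher and 10520388 differed by 0.10 ± 0.09.

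**Figure D3:**
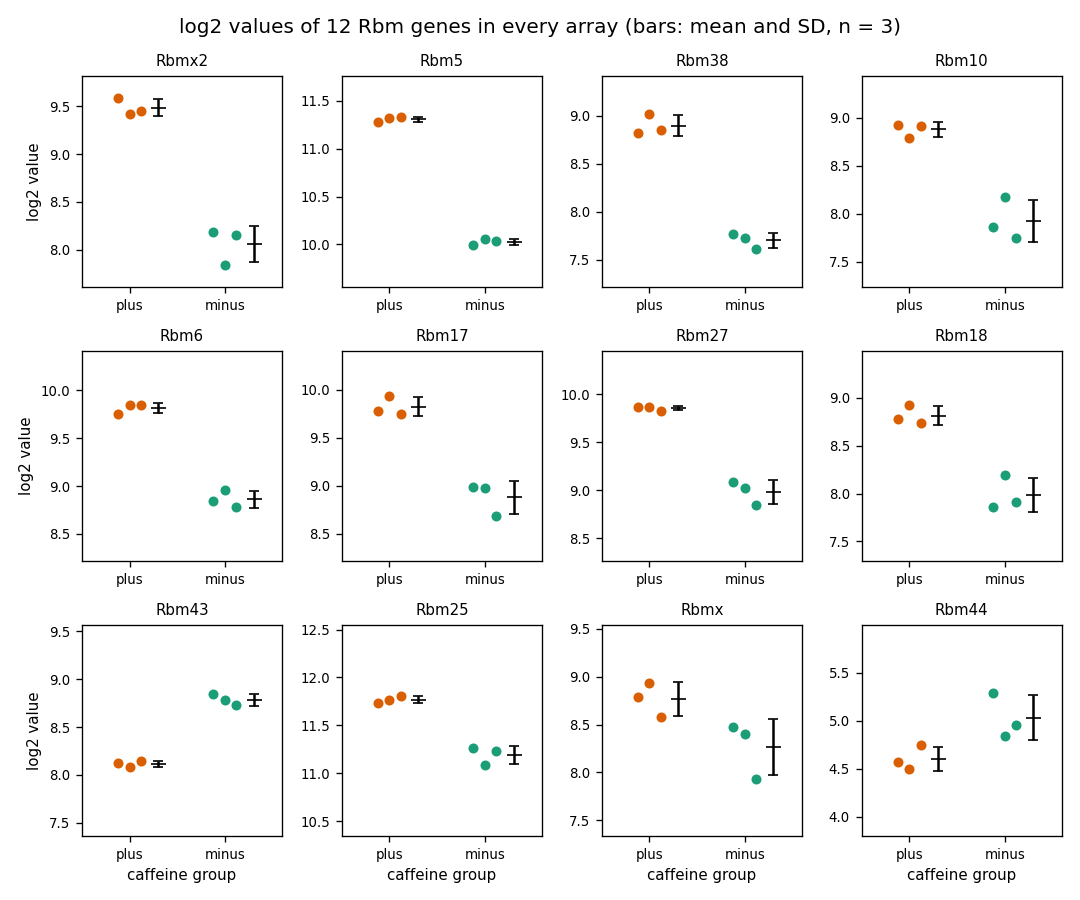
Points give the log2 value in each of 3 caffeine-plus (orange, left) and 3 caffeine-minus (green, right) arrays for the 12 called Rbm genes with the largest absolute differences, and black bars the mean and SD of each group (n = 3). All panels span the same range of log2 units, each around its own middle. In all 12 panels the groups do not overlap, Rbm43 and Rbm44 being lower in the caffeine-plus arrays.

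Of the 8 genes grouped here as tissue-restricted regulators, 1 rose, 3 fell and 4 did not pass. The group is mixed, with mean log2 levels from 4.82 (Rbm44) to 9.42 (Rbm45), and 8.30 for Rbm38. The 12.5% that rose is near the 16.2% of all genes, and of the 3 falls (37.5%, against 21.7% of all genes) those of Rbm44 and Rbm45 were lost in some alternatives. Rbm38, induced by p53 in human cells and able to bind and stabilise target mRNAs, had log2 values of 8.82, 9.02 and 8.85 in caffeine-plus arrays, against 7.76, 7.73 and 7.61 in caffeine-minus arrays. It rose 2.29-fold (1.20 ± 0.08, limma adjusted p = 1.6e-08), and its groups did not overlap. Rbm44, a germ cell gene, had values of 4.56, 4.50 and 4.74 in caffeine-plus arrays and 5.29, 4.84 and 4.95 in caffeine-minus arrays. These are low values on the array's scale, and the fall (-0.43 ± 0.13, limma adjusted p = 0.014) was lost without caffeine-minus array 1 (0.091) or caffeine-plus array 2 (0.059), with a range of 0.0059 to 0.091 over 14 alternatives. Rbm20, which controls titin splicing in the heart, was 1.34-fold lower (-0.42 ± 0.10, limma adjusted p = 0.0036), at group means of 5.63 ± 0.07 in caffeine-plus and 6.05 ± 0.10 in caffeine-minus arrays (SD, n = 3). Rbm45, known from neurons, was 1.14-fold lower (-0.19 ± 0.07, limma adjusted p = 0.039). Its call was lost in 7 of 16 alternatives, among them each of 5 single arrays left out, with limma adjusted p from 0.00044 to 0.21. Rbm46 (0.11 ± 0.11), a germ cell gene needed for meiosis, and the muscle splicing factor gene Rbm24 (0.05 ± 0.10) did not pass. Neither did Rbm47 (-0.01 ± 0.11), the gene of a cofactor of C-to-U editing, nor Rbm11 (-0.18 ± 0.12), a brain and testis splicing factor gene.

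Rbm43, whose protein represses translation of PGC1α in mouse fat cells, showed the largest fall of the members. It had log2 values of 8.12, 8.08 and 8.14 in caffeine-plus arrays, against 8.84, 8.78 and 8.73 in caffeine-minus arrays. The SD was 0.03 in caffeine-plus and 0.06 in caffeine-minus arrays, against a difference of -0.67 ± 0.08, a 1.59-fold fall (limma adjusted p = 2.3e-06). Rbm18, whose protein has a single RNA recognition motif, had values of 8.78, 8.93 and 8.73 in caffeine-plus arrays and 7.86, 8.19 and 7.92 in caffeine-minus arrays. It rose 1.77-fold (0.83 ± 0.10, limma adjusted p = 3e-06), and the overlapping gene Mrrf differed by 0.13 ± 0.09 and did not pass. Rbm12b2 was 1.21-fold lower (-0.27 ± 0.07, limma adjusted p = 0.0055), and Tmem67, whose span overlaps it, did not pass (-0.08 ± 0.10). A probe set that Rbm12b2 shares with Rbm12b1, 10503363, differed by -0.19 ± 0.07. It did not pass in the fit of all probe sets (limma adjusted p = 0.090).

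Rbm15 and Rbm15b encode adaptors that bring the m6A methyltransferase to RNA, and neither passed. Rbm15 had log2 values of 9.13, 9.25 and 9.32 in caffeine-plus arrays, against 9.41, 9.39 and 9.37 in caffeine-minus arrays. The groups did not overlap (-0.16 ± 0.07, limma adjusted p = 0.093), and it passed as lower after quantile normalization (0.0046) and with array weights (0.038), with a range of 0.0046 to 0.41 over 16 alternatives. Rbm15b differed by -0.05 ± 0.10 at its brightest probe set and by 0.29 ± 0.11 at the other, neither past the threshold. The other came close to it when every probe set was tested (limma adjusted p = 0.0511).

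Of 3 genes for nucleolar factors 1 rose and the other two did not pass, where 16.2% of all genes rose. Rbm19, needed for ribosome production, had log2 values of 6.44, 6.39 and 6.50 in caffeine-plus arrays and 6.09, 6.02 and 6.12 in caffeine-minus arrays, a 1.29-fold rise (0.36 ± 0.10, limma adjusted p = 0.0066) with no overlap. Rbm34 differed by 0.19 ± 0.08 (limma adjusted p = 0.076), and passed with arrays centred on their medians (0.039), without caffeine-minus array 1 (0.036) and with the replicate number as a block (0.049), over a range of 0.036 to 0.26 in 16 alternatives. Rbm28, the counterpart of a yeast ribosome assembly factor, differed by -0.07 ± 0.07 and did not pass.

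Rbm3, the gene of a cold-induced RNA-binding protein, did not pass. It had log2 values of 11.96, 11.92 and 11.95 in caffeine-plus arrays and 12.02, 12.02 and 11.94 in caffeine-minus arrays, which overlap (-0.05 ± 0.04, limma adjusted p = 0.45). Its second probe set differed by -0.18 ± 0.07 and narrowly did not pass when every probe set was tested (limma adjusted p = 0.0502). The overlapping Rbm3os (-0.07 ± 0.11) and the pseudogene Rbm8a2 (0.03 ± 0.10) did not pass. Rbm4b, the gene of a protein related to the fly clock factor Lark, had values of 9.32, 9.21 and 9.28 in caffeine-plus arrays and 9.35, 9.20 and 9.42 in caffeine-minus arrays, which overlap (-0.05 ± 0.07, limma adjusted p = 0.66).

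**Figure D4:**
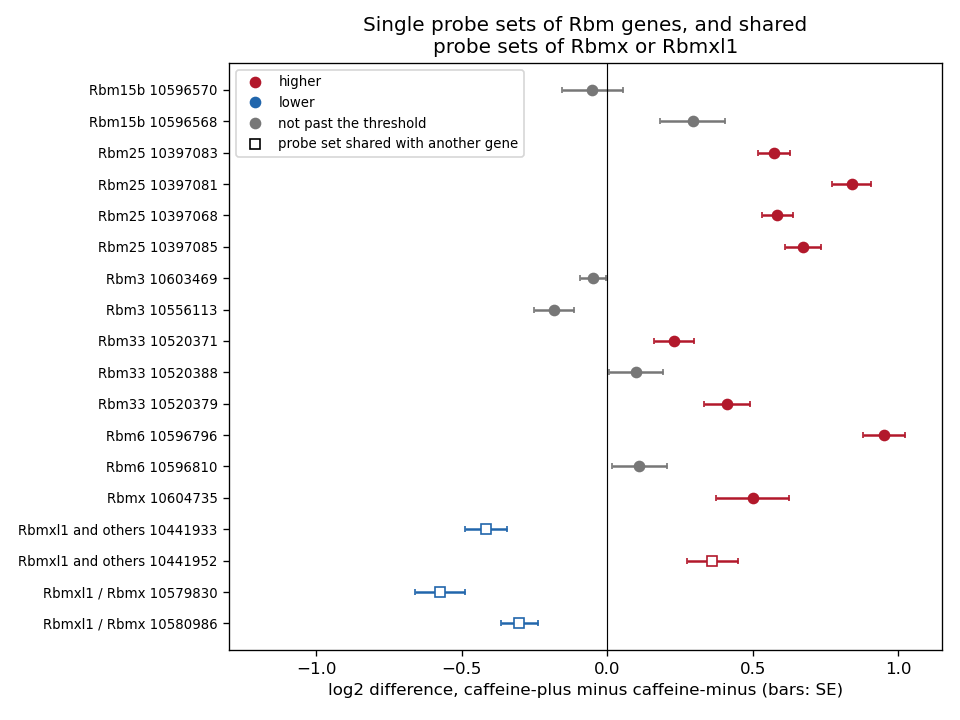
Log2 differences, caffeine-plus minus caffeine-minus, of the single probe sets of the 5 Rbm genes that have several, of the Rbmx probe set, and of 4 probe sets annotated to Rbmx or Rbmxl1 with other genes (open squares), with the standard error as a bar. All 4 Rbm25 probe sets lie near each other between 0.57 and 0.84, and the probe sets shared by Rbmx and Rbmxl1 lie left of 0 while the Rbmx probe set lies at 0.50.

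In all, 9 probe sets were shared by an Rbm gene with another gene and so lie outside the members. Besides the Rbmx copies they include the only ones for Rbm4 (shared with Gm21992, 0.39 ± 0.10, limma adjusted p = 0.024), Rbm14 (shared with Gm21992, 0.14 ± 0.07, limma adjusted p = 0.19) and Rbm12 (shared with Cpne1, 0.27 ± 0.09, limma adjusted p = 0.0505). The probe set for Rbm31y, shared with Gm21379, differed by 0.41 ± 0.10 at low values (limma adjusted p = 0.015). These values come from the fit of all 34760 probe sets and were picked out after they were seen. Members that rose spanned 9.70 to 102 kb of genome (median 31.8 kb), those that fell 10.7 to 206 kb (median 16.2 kb) and those not past the threshold 0.726 to 135 kb (median 13.0 kb). Of the 6 members on chromosome X, Rbmx2, Rbm10 and Rbmx rose, where 16.2% of all genes and 29.5% of those above the median level did. Rbm3, Rbm3os and Rbm41, also on that chromosome, did not pass. All of them but Rbm3os lie above the median level. The call for Rbmx rests on its own probe set, and the probe sets it shares with Rbmxl1 alone were lower.

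A list of 41 genes whose products work beside Rbm proteins, or that are related to them, had 40 measured members. Of these 23 rose, 5 fell and 12 did not pass, with a median of 0.39, where 16.2% of all genes rose and 21.7% fell. Most of the list lies above the median level, and of all genes of that brightness 29.5% rose and 33.0% fell. The factors of U2AF and the branch site, partners of Rbm17 and Rbm39, had 7 of 9 rising and none falling, among them U2surp (1.84-fold), Sf3b1 (1.65-fold), a core U2 protein, and the helicase gene Dhx15 (1.59-fold). Of 5 U1-linked genes 3 rose and none fell. Luc7l had log2 values of 9.74, 9.73 and 9.58 in caffeine-plus arrays, against 8.22, 8.41 and 8.21 in caffeine-minus arrays, a 2.64-fold rise (1.40 ± 0.08, limma adjusted p = 1.5e-09). Srrm1, a coactivator of splicing, was 2.10-fold and Luc7l3 1.38-fold higher.

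Minor spliceosome genes, partners of Rbm41 and Rbm48, had 4 of 8 rising and 2 falling, where 16.2% of all genes rose and 21.7% fell, so that the share falling, 25%, is near that of all genes. Rnpc3, which bridges the U11 and U12 particles, was 2.53-fold higher, Snrnp48 1.86-fold and Zcrb1 1.57-fold, while Snrnp25 and Snrnp35, picked out after their values were seen, were 1.67-fold and 1.51-fold lower. Of 7 m6A genes 5 rose and none fell, with Zc3h13 2.05-fold, Wtap 1.97-fold and Mettl14 1.81-fold higher, genes of the complex to which Rbm15 and Rbm15b proteins bind. Of 5 genes that target RNA to the nuclear exosome 3 rose and none fell. Mtrex, its helicase, had log2 values of 10.88, 10.80 and 10.85 in caffeine-plus arrays, against 9.18, 9.36 and 8.91 in caffeine-minus arrays, the largest rise of the list at 3.24-fold (1.69 ± 0.09, limma adjusted p = 8e-10). Zfc3h1, which links the exosome to the proteins of Rbm26 and Rbm27, was 2.20-fold higher and Zc3h18 1.41-fold higher.

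Cirbp, the other cold-induced RNA-binding gene and a close relative of Rbm3, fell. It had log2 values of 7.58, 7.78 and 7.35 in caffeine-plus arrays, against 8.95, 8.84 and 8.96 in caffeine-minus arrays. The groups were over a log2 unit apart, and the fall was 2.55-fold (-1.35 ± 0.10, limma adjusted p = 2.8e-08). Of the Rbms genes, whose proteins bind single-stranded nucleic acid, Rbms1 was 1.19-fold higher (limma adjusted p = 0.0099), Rbms2 1.24-fold lower (limma adjusted p = 0.032) and Rbms3 differed by 0.09 ± 0.11. Of the C-to-U editing genes that work with Rbm47, A1cf was 1.26-fold lower (limma adjusted p = 0.039) and Apobec1 differed by -0.13 ± 0.10. The mean log2 level of A1cf, 4.43, is low on the array's scale.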

How the data were processed

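RNA of cultured granulocytes was labelled from 300 ng total RNA and hybridised to 6 arrays, per the labels' protocols. The table the authors deposited holds 34760 probe sets, taken as log2 values, since they run from 1.90 to 13.98, and used without further normalization. How probes were summarized, background-corrected and normalized is not given in the labels. The values are relative within an array, and the number of arrays limits the precision.

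Platform annotation gave 21640 probe sets 1 symbol and 1321 several, and did not list 11799. RefSeq's gene table (GRCm38.p6) held 21553 of the 21640 and gave current symbols, spans and overlaps. No strand is given there, and probe coordinates were not used. Groups were compared over 19937 genes with limma 3.58.1 in R 4.3.3 (eBayes with an intensity trend, no filter on dim genes) and tested on simulated data. Members, role groups, partner and marker lists were chosen with earlier results of these data known. Every member was named, with values in every array for the 12 called members with the largest difference and the smallest p in each role group, and up to 3 partners per list. Luc7l, Mtrex and Cirbp had their array values added after they were seen.

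The alternatives were a replicate block, quantile normalization, median centring, 2 filters on dim genes, the mean of probe sets, every probe set tested, no trend, robust variance, array weights and each array left out. Same-numbered arrays deviated together at r = -0.03, 0.19 and 0.29 over genes, and differently numbered ones at -0.28 to 0.13. These values do not settle whether the numbers pair the arrays. The labels do not state such a pairing, so the block was kept as an alternative. With it 8048 genes were called, against 7554 in the fit as reported.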

Additional observations from a re-analysis of the deposited data

How the results depend on the processing

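Under the 16 alternatives, 546 of 565 member values kept their direction where called and their side of the threshold, 13 lost a call and 6 gained one. No called member changed sign. Of the 14 members that rose, 13 kept the call in every alternative that tested them, all but Rbm33, and of the 5 that fell Rbm43, Rbm20 and Rbm12b2 did. Of these, Rbm19 and Rbm20 lie below the median level and were each tested in 15 alternatives. The count of risers was 13 to 16, and 13 to 15 with 1 array left out. The count that fell, 5, was 3 to 6 over the alternatives. It was 6 after quantile normalization and with array weights, 3 among genes above the median level, where 28 members were tested, and 3 to 5 with 1 array left out. It was 3 without caffeine-plus array 2 or without caffeine-minus array 1. The median difference of 0.07 was 0.18 among genes above the median level, 0.13 with arrays centred on their medians and 0.11 after quantile normalization or among genes above the 25th percentile. With 1 array left out it was 0.05 to 0.12 (0.05 without caffeine-plus array 3, 0.11 without caffeine-minus array 1 and 0.12 without caffeine-plus array 2). The median over all genes, -0.04, was 0.02 with centring. For partners, the 5 that fell became 3 with arrays centred on their medians, 3 among genes above the median level and 3 to 5 with 1 array left out (3 without caffeine-plus array 3, caffeine-minus array 1 or caffeine-minus array 2). With the replicate number as a block, 15 members rose and 5 fell. Centring moved the share of risers among all calls to 49.5%, against 42.7% in the fit as reported. Without detection p-values, a low value, as for Rbm44 or Rbm8a2, does not show that a gene is silent, and the differences of such genes are likely compressed.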
